A study of Mus musculus with 9 samples.

Results

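The Toll-like receptors that reach the cell surface, and the proteins they need to bind their ligands, were examined in sorted splenic dendritic cells. The 9 genes were taken by symbol: the receptors *Tlr1*, *Tlr2*, *Tlr4*, *Tlr5* and *Tlr6*, the TLR4 cofactors *Ly96* (MD-2) and *Cd14*, and the related receptor *Cd180* with its partner *Ly86* (MD-1). All 9 were among the 24054 genes listed in the files and among the 14452 tested. The libraries came from C57BL/6 mice of the genotype Clec9a-Cre/Cre Rosa-tdTomato/tdTomato, so all groups carried 2 copies of both alleles, and no mice without them were analysed here. Cre is driven by *Clec9a*, a gene active in dendritic cell precursors and in cDC1, and TOMATO therefore marks cells with a history of *Clec9a* expression. Live spleen cells that lacked autofluorescence and carried MHCII, CD11c and CD11b were sorted by their TOMATO signal. Mice at postnatal day 8 gave 3 libraries of TOM+ cDC2 and 3 of TOM- DC2, numbered 81, 91 and 92 in each group. Adult mice gave 3 libraries of TOM+ cDC2, of which library 91 came from 9 weeks of age and libraries 92 and 95 from 8 weeks. Spleens of young mice were pooled before the sort, and p-values measure the spread between these libraries only.

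Surface Toll-like receptors recognise components of the outer envelope of microbes. TLR2 pairs with TLR1 for triacylated lipopeptides and with TLR6 for diacylated ones. TLR4 senses lipopolysaccharide as a complex with MD-2, to which CD14 delivers the ligand, and TLR5 senses bacterial flagellin. CD180 resembles TLR4 in its extracellular part, lacks its signalling domain and is held at the surface by MD-1. All the receptors except CD180 signal through a cytoplasmic TIR domain that recruits MyD88.

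Sorted cells had the transcripts of conventional dendritic cells. *Itgax* stood at 300.72 to 463.08 TPM (a transcript's share of the library, corrected for its length) and *Zbtb46* at 111.71 to 159.16, both shared by cDC1 and cDC2, and *Sirpa*, a cDC2 marker, at 462.71 to 862.4 TPM. Of the cDC1 list, *Xcr1* was at 3.79 TPM or lower in all 9 libraries, while *Batf3* was at 151.62 to 193.97, *Irf8* at 20.27 to 49.22 and *Cadm1* at 6.24 to 21.21 TPM. Reads counted on genes ranged from 12.8 to 22.8 M per library. One library stood apart: TOM- DC2 library 81 from young mice held 443.65 TPM of the hemoglobin gene *Hba-a1* and 15.51 TPM of the neutrophil granule gene *Ngp*, against at most 35.76 and 0.09 TPM in the other libraries. Without it, 5 genes still passed the test between TOM- DC2 and adult cells and 3 were called, the same numbers as with it. Because these are bulk samples, fewer cells expressing a gene and less RNA per cell cannot be told apart.

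*Tlr1* and *Tlr6* need a word on sequence before their values, since they are close paralogs and 50-base reads can fit both. On GRCm38 (GENCODE vM21) *Tlr1* lies at chr5:64924679-64933563 and *Tlr6* at chr5:64952031-64960097, both on the minus strand with 18467 bases between them. Their coding sequences of 2388 and 2421 bases were 72.2% identical over the alignment, against 47.4% for *Tlr1* and *Tlr2* and 43.5% for *Tlr4* and *Cd180*. Identity was unevenly spread, with 6 identical runs of at least 50 bases that held 748 bases in all. The longest run, shown because no read inside it can be assigned to one of the genes, spans 229 bases of exon 4 of 4 in *Tlr1* (chr5:64925537-64925765) and of exon 2 of 2 in *Tlr6* (chr5:64953828-64954056), within the coding sequence and read on the minus strand.
*Tlr1* and *Tlr6*: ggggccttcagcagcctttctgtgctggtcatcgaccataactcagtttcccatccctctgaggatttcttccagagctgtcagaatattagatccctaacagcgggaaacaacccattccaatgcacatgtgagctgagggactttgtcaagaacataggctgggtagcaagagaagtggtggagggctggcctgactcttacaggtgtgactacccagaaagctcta
By contrast, the 60-base stretch of the alignment with the most differences lies nearer the 5′ end, at chr5:64926652-64926711 in *Tlr1* and chr5:64954937-64954996 in *Tlr6*, and differed at 36 bases, which are in capitals.
*Tlr1*: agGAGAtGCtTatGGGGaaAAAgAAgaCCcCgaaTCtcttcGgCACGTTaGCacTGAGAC
*Tlr6*: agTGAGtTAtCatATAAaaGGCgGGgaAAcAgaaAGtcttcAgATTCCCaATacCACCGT
Of all 50-base windows, 15.3% of the *Tlr1* transcript and 12.6% of the *Tlr6* transcript also occurred in another gene, and 0 windows of the other 7 members did. STAR left out reads that fit several places equally well, whereas RSEM divides them, and RSEM's expected count was 1.194 to 1.252 times the STAR count for *Tlr1* and 1.215 to 1.28 times for *Tlr6*. For the other members the ratio lay between 0.853 and 0.995. The ratio for *Tlr1* was 1.194 to 1.218 in libraries of young mice and 1.206 to 1.252 in those of adults. For *Tlr6* it was 1.215 to 1.256 and 1.266 to 1.28, which did not overlap.

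The genes differed widely in level. *Ly86* ranked first in each of the 3 groups, with mean TPM of 418 ± 28.8 in young TOM+ cDC2, 463 ± 38.5 in young TOM- DC2 and 457 ± 22.2 in adult TOM+ cDC2 (SD, n = 3). *Tlr2* came second in each group and its libraries overlapped with those of no other member. In the middle of the order, *Tlr1*, *Cd180*, *Cd14* and *Ly96* overlapped with their neighbours in both young groups. In adult TOM+ cDC2 *Tlr1* separated from *Cd180*, and *Cd180* and *Cd14* overlapped. *Ly96* came next, overlapping with *Tlr5* in adults, and *Tlr6*, *Tlr5* and *Tlr4* stood last. *Tlr4* was the lowest of all in young TOM+ cDC2 and in adult cells, while *Tlr5* was the lowest in young TOM- DC2. Read numbers were lowest for *Tlr4*, with 42 to 256 STAR counts per library, and for *Ly96*, a transcript of 632 bases, with 58 to 194.

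**Figure D1:**
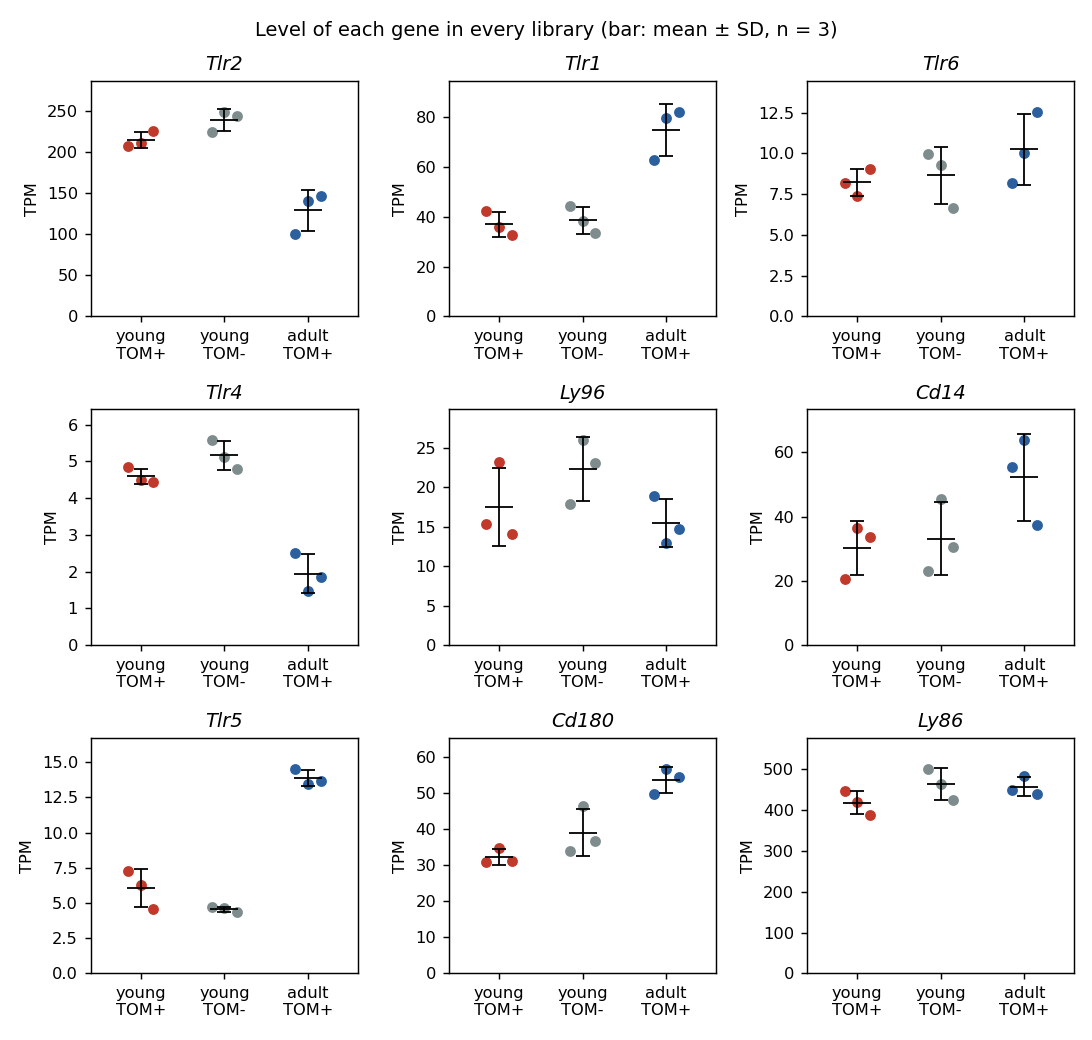
TPM (y axes, from 0) of the 9 genes in every library of young TOM+ cDC2, young TOM- DC2 and adult TOM+ cDC2; points are libraries in the order 81, 91, 92 (young) and 91, 92, 95 (adult), bars the mean ± SD of 3. Adult libraries lie apart from both young groups for *Tlr1*, *Tlr2*, *Tlr4*, *Tlr5* and *Cd180*, and overlap with both for *Tlr6*, *Ly96* and *Ly86*. The share of all genes separated in this way is not given here.

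To see how age bears on these genes in cells of the same Clec9a history, the young and adult TOM+ cDC2 were compared. *Tlr2* and *Tlr4* were higher in young cells, and *Tlr1*, *Tlr5*, *Cd180*, *Cd14* and *Ly86* were higher in adult cells. *Tlr4* was 2.15-fold higher at 8 days, *Tlr1* 2.2-fold and *Tlr5* 2.51-fold higher in adults. *Tlr6* and *Ly96* did not pass the test. Differences were tested on STAR counts with edgeR's quasi-likelihood test, and a gene passed at an adjusted p under 0.05 and was called when its log2 fold change (log2FC) also exceeded 1 in either direction. Of the 9 genes, 2 passed as higher in young cells, where 21.0% of all genes tested did, and 5 as higher in adult cells, where 19.5% did. One gene was called in the young direction (background 5.96%) and 2 in the adult direction (background 6.86%). The median log2FC was -0.41 over the 9 genes and 0.05 over all genes tested.

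Among the TLR2 family, the shared subunit and its partners did not move together. *Tlr2* had 207.78, 210.93 and 225.25 TPM in the young TOM+ libraries 81, 91 and 92, and 100.60, 139.97 and 147.16 TPM in the adult libraries 91, 92 and 95. All 3 young libraries lay above all adult ones, at a log2FC of 0.61 (SE 0.13, edgeR adjusted p = 0.0025). *Tlr1*, the partner for triacylated lipopeptides, went the other way, with 42.38, 35.96 and 32.48 TPM in young and 62.91, 79.54 and 82.06 TPM in adult libraries. Again the groups did not overlap, and the log2FC was -1.14 (SE 0.12, edgeR adjusted p = 1.3e-05). *Tlr6*, the partner for diacylated lipopeptides, had 8.20, 7.41 and 9.05 TPM in young and 8.19, 10.01 and 12.55 TPM in adult libraries. These ranges overlapped, with a log2FC of -0.41 (95% interval -0.79 to -0.03, edgeR adjusted p = 0.083). Without adult library 91, the lowest of the adults, the log2FC of *Tlr6* was -0.53 with an edgeR adjusted p of 0.04, and with RSEM expected counts it was -0.48 (edgeR adjusted p = 0.051). Without adult library 95 it was -0.26 (edgeR adjusted p = 0.3), and *Tlr6* did not pass in 18 of 19 alternatives.

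For the lipopolysaccharide receptor, the gene for the receptor chain and that for the ligand carrier CD14 went in opposite directions. *Tlr4* had 4.84, 4.49 and 4.45 TPM in young TOM+ and 2.51, 1.46 and 1.84 TPM in adult libraries. Every young library was above every adult one, and the log2FC was 1.10 (SE 0.18, edgeR adjusted p = 0.00035). Without adult library 92, which had the fewest *Tlr4* counts, the log2FC was 0.95, below the fold threshold but past the test (edgeR adjusted p = 0.0016). *Ly96*, encoding the MD-2 subunit that holds lipopolysaccharide, had 15.29, 23.24 and 14.03 TPM in young and 18.90, 12.90 and 14.66 TPM in adult libraries. The groups overlapped, and the log2FC of 0.07 had a 95% interval from -0.46 to 0.60. *Cd14* had 20.66, 36.33 and 33.65 TPM in young and 55.43, 63.81 and 37.42 TPM in adult libraries. The highest young and lowest adult value nearly met, and the log2FC was -0.89 (SE 0.30, edgeR adjusted p = 0.031). *Cd14* no longer passed without young library 81 (0.086), adult library 91 (0.086) or adult library 92 (0.12), all edgeR adjusted p, nor with limma on log2(TPM + 1) (limma adjusted p = 0.06).

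*Tlr5*, the flagellin receptor, showed the largest change of the 9 genes in this comparison. It had 7.24, 6.31 and 4.59 TPM in young TOM+ and 14.53, 13.44 and 13.68 TPM in adult libraries. Adult libraries were tightly grouped and lay far above the young ones, with a log2FC of -1.33 (SE 0.14, edgeR adjusted p = 1.7e-05).

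Both genes of the CD180 complex passed as higher in adult cells, the receptor by more than its partner. *Cd180* had 30.79, 34.76 and 31.30 TPM in young TOM+ and 49.69, 56.77 and 54.49 TPM in adult libraries. The groups did not overlap, and the log2FC was -0.86 (SE 0.14, edgeR adjusted p = 0.00037). *Ly86* had 445.73, 419.37 and 388.19 TPM in young and 449.69, 481.99 and 439.55 TPM in adult libraries. These ranges overlapped on the TPM scale, and the log2FC in counts was small at -0.25 (SE 0.08, edgeR adjusted p = 0.029). *Ly86* no longer passed without young TOM+ library 91 (0.055) or 92 (0.08) or without adult library 91 (0.063) or 92 (0.099), all edgeR adjusted p, nor with limma on log2(TPM + 1), where the log2FC was -0.13 (limma adjusted p = 0.22).

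**Figure D2:**
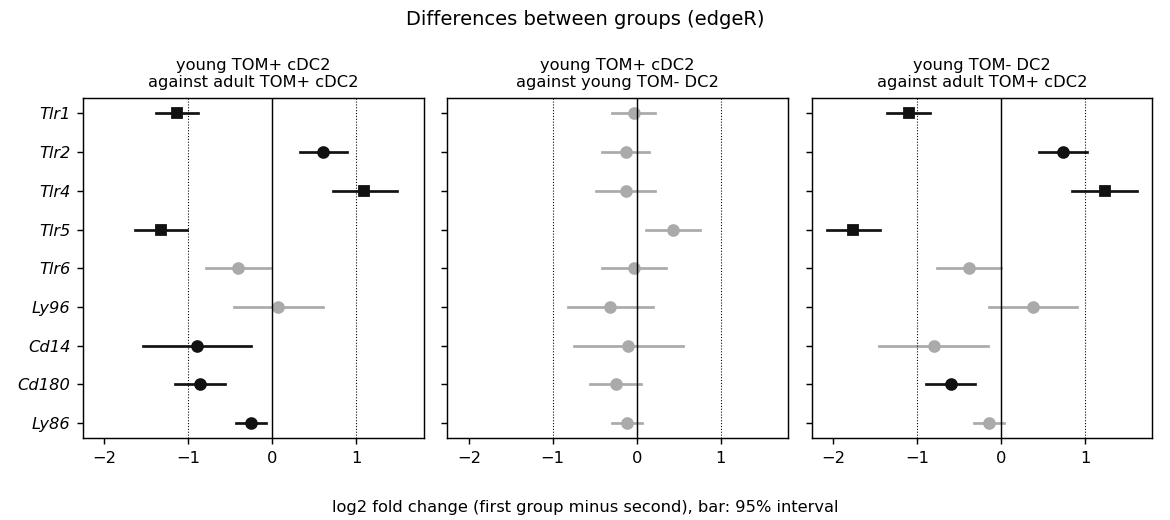
log2 fold change of each gene (first group minus second, edgeR) in the 3 comparisons, with its 95% interval; black marks passed at an adjusted p under 0.05, grey ones did not, squares were called and dotted lines mark a log2FC of -1 and 1. Between the young groups no gene passed, and *Tlr5* at 0.43 lay farthest from 0.

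To ask whether a history of *Clec9a* expression bears on these genes at one age, the TOM+ and TOM- populations of young mice were compared. Levels of the 9 genes lay close together in the 2 young populations. With edgeR, 0 of 9 passed in either direction and 0 were called, and 1 had an unadjusted p under 0.05; limma and DESeq2 also passed 0. Of all genes tested, 0.125% passed as higher in TOM+ cDC2 and 1.47% as higher in TOM- DC2, and 0.0208% and 1.16% were called. The 9 log2FC values ran from -0.32 for *Ly96* to 0.43 for *Tlr5*.

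*Tlr5* was the gene with the low unadjusted p. Against the TOM+ values given above, TOM- DC2 had 4.68, 4.64 and 4.35 TPM in libraries 81, 91 and 92, so TOM+ library 92 fell within the range of the TOM- libraries. The log2FC was 0.43 with a 95% interval from 0.11 to 0.75 and an edgeR adjusted p of 0.27. In libraries of the same number *Tlr5* was higher in TOM+ cDC2 in 3 of 3 pairs. Another 6 members (*Tlr1*, *Tlr2*, *Tlr4*, *Ly96*, *Cd180* and *Ly86*) were lower in TOM+ cDC2 in every pair. The share of all genes with such pairs is not given here. With the library number as a block the log2FC of *Tlr5* was 0.41 (edgeR adjusted p = 0.16). Of the other members none passed in this blocked fit either, with edgeR adjusted p from 0.21 for *Cd180* to 0.98 for *Tlr6*. For *Tlr2* the TOM- libraries had 224.25, 249.16 and 243.96 TPM and for *Tlr1* 44.25, 38.07 and 33.50 TPM, and both overlapped with TOM+ cDC2. The 95% interval was -0.41 to 0.15 for *Tlr2*, -0.29 to 0.22 for *Tlr1* and -0.48 to 0.22 for *Tlr4*, which had 5.58, 5.12 and 4.80 TPM in TOM- DC2. A 2-fold difference lay outside the intervals of all 9 genes. The widest was that of *Cd14*, from -0.75 to 0.55, whose TOM- libraries ranged from 23.08 TPM in library 81 to 45.43 TPM in library 91.

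TOM- DC2 from 8-day-old mice were also set against adult TOM+ cDC2. Age and history differ together here, and the adult libraries are those used above. *Tlr4* and *Tlr2* were again higher in young cells, and *Tlr1*, *Tlr5* and *Cd180* in adult cells. So 2 of 9 genes passed as higher in young cells (background 19.4%) and 3 as higher in adult cells (background 16.9%), of which 1 was called in the young direction (background 6.50%) and 2 in the adult direction (background 4.78%).

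*Tlr5* changed most, at a log2FC of -1.76 (SE 0.14, edgeR adjusted p = 3.6e-06), which made it 3.38-fold higher in adults. *Tlr1* had a log2FC of -1.10 (SE 0.12) and *Tlr4* of 1.24 (SE 0.18), with edgeR adjusted p of 2.2e-05 and 0.00019. The log2FC of *Tlr2* was 0.74 (edgeR adjusted p = 0.00083) and that of *Cd180* -0.60 (edgeR adjusted p = 0.0044), where *Cd180* had 33.89, 46.29 and 36.81 TPM in TOM- DC2. *Cd14* had 23.08, 45.43 and 30.63 TPM in TOM- DC2, and TOM- library 91 lay above adult library 95. Its log2FC of -0.80 missed the threshold (edgeR adjusted p = 0.054). It passed in 10 of 19 alternatives, with adjusted p from 0.00014 to 0.19 over all of them, among them edgeR on RSEM expected counts (0.043) and edgeR with the library number of the young mice as a block (log2FC -0.87, adjusted p = 0.0017). *Tlr6* (9.97, 9.31 and 6.67 TPM in TOM- DC2, log2FC -0.38), *Ly96* (17.95, 25.99 and 23.06 TPM, log2FC 0.38) and *Ly86* (500.73, 463.77 and 423.76 TPM, log2FC -0.14) did not pass, with edgeR adjusted p of 0.11, 0.23 and 0.21.

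The make-up of the surface receptors differed between young and adult cells, with *Tlr2* the largest share in each library. Of the summed TPM of the 5 receptors, *Tlr2* made up 79.4% ± 2.46 in young TOM+ cDC2, 80.7% ± 2.79 in young TOM- DC2 and 55.9% ± 2.28 in adult TOM+ cDC2 (SD, n = 3). The share of *Tlr1* was 13.7% ± 1.95 in young TOM+ and 32.6% ± 0.702 in adult cells, with 11.4% to 15.3% in the TOM- libraries, and that of *Tlr5* 2.24% ± 0.524, 1.54% ± 0.0737 and 6.17% ± 1.33. Adult libraries lay apart from all young libraries in each of these 3 shares. They also did in that of *Tlr6*, at 2.27% to 3.45% in young and 4.1% to 4.88% in adult libraries, although its TPM overlapped. The shares of a library add up to the whole, so a lower share of *Tlr2* leaves more for the others together. *Tlr4* took 1.61% to 1.93% in the young libraries and 0.597% to 1.33% in the adult ones. The sum itself was 265.1 to 306.3 TPM in the 6 young and 188.7 to 257.3 TPM in the adult libraries.

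**Figure D3:**
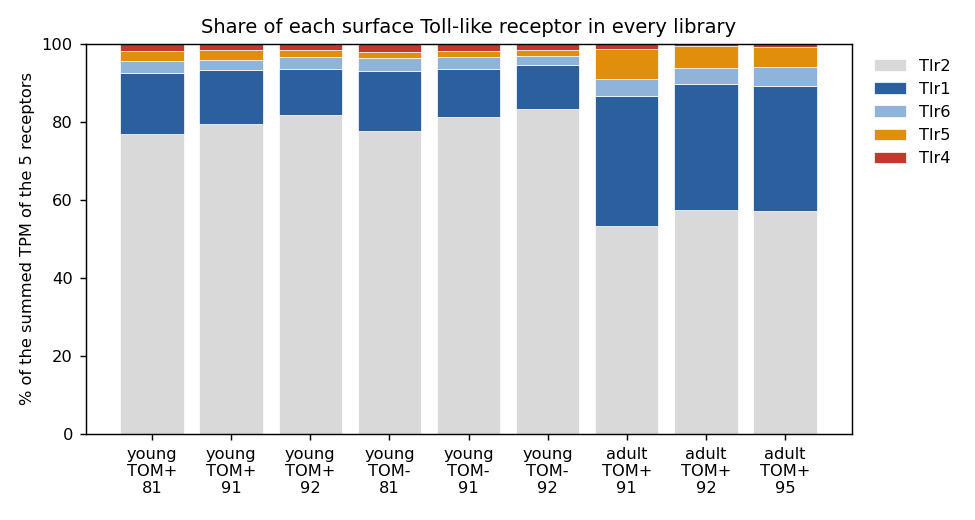
Share of each of the 5 surface receptors in their summed TPM (y axis, percent) in every library, labelled by group and library number. *Tlr2* takes 76.8% to 83.2% in the 6 young libraries and 53.3% to 57.3% in the 3 adult ones, and *Tlr1* 11.4% to 15.7% against 31.9% to 33.3%.

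Ratios within a library set genes against each other without regard to library scaling. The pairs were 5 of a receptor and its partner, and *Tlr5* with *Tlr4*, which form no complex. For each of the 6 pairs the log2 ratio of TPM was compared over libraries with an exact two-sided permutation test, which cannot go below 0.1 with 3 libraries against 3; 18 comparisons were made, and the lowest adjusted p was 0.138, so none could pass. The separations are therefore given as values, without the share of all gene pairs that separate in the same way. *Tlr1* stood at 0.137 to 0.204 of the level of *Tlr2* in the 6 young libraries and at 0.558 to 0.625 in the adult ones. *Tlr6* stood at 0.0273 to 0.0445 of *Tlr2* in young and at 0.0715 to 0.0853 in adult libraries. Both partners were thus closer to *Tlr2* in adult cells, *Tlr1* by 3.41-fold and *Tlr6* by 2.07-fold in TOM+ cells.

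Transcripts of both TLR4 cofactors outnumbered those of the receptor in every library. The *Ly96* to *Tlr4* ratio was 3.15 to 5.18 in young TOM+ cDC2, 3.22 to 5.08 in young TOM- DC2 and 7.53 to 8.84 in adult TOM+ cDC2. The *Cd14* to *Tlr4* ratio was 4.27 to 8.09, 4.14 to 8.87 and 20.3 to 43.7 in the same order. Adult libraries did not overlap with young ones in either ratio, and library 92 was the highest adult in both. *Ly86* exceeded *Cd180* by a geometric mean of 12.9-fold in young TOM+ cDC2, 11.9-fold in TOM- DC2 and 8.53-fold in adult cells. Of the flagellin and lipopolysaccharide receptors, which were called in opposite directions above, *Tlr5* was 1.03 to 1.5 times *Tlr4* in young TOM+ cDC2, 0.839 to 0.906 times in young TOM- DC2 and 5.79 to 9.21 times in adult TOM+ cDC2. In this ratio, unlike the other 5, the 2 young groups did not overlap either (difference 0.55 on the log2 scale, exact permutation p = 0.1, adjusted p = 0.138).

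**Figure D4:**
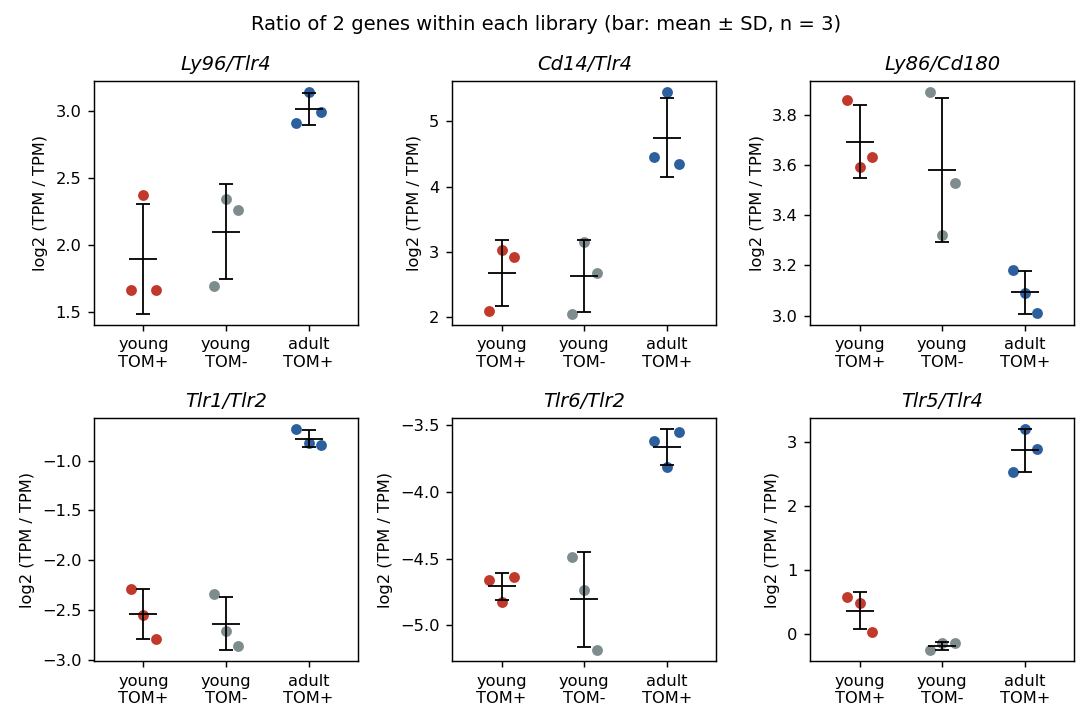
log2 of the TPM ratio of 2 genes within each library (y axes, which do not start at 0), by group; points are libraries and bars the mean ± SD of 3. The 3 adult libraries lie apart from all 6 young libraries in each of the 6 ratios.

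Genes that act around these receptors were taken as 6 lists of 49 genes, of which 47 were tested. Between young TOM+ and adult TOM+ cDC2, 7 of the 47 (14.9%) passed as higher in young and 18 (38.3%) as higher in adult cells, where 21.0% and 19.5% of all genes did. Their median log2FC was -0.24. For young TOM- DC2 against the same adult libraries the numbers were 7 (14.9%) and 20 (42.6%), where 19.4% and 16.9% of all genes did, and the median was -0.13. Between the young groups 0 passed as higher in TOM+ cDC2 (0.125% of all genes) and 3 as higher in TOM- DC2 (1.47% of all genes). Unless said otherwise, the counts per list below compare young TOM+ with adult TOM+ cDC2. Their background is thus 21.0% of all genes for higher in young and 19.5% for higher in adult cells.

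Among the 7 adaptors, 1 was higher in young TOM+ and 4 in adult cells, and *Myd88*, the common adaptor, did not pass at 182 ± 3.45 TPM in young TOM+ and 152 ± 3.95 TPM in adult cells (log2FC 0.14, edgeR adjusted p = 0.19). *Scimp*, a TLR adaptor of antigen-presenting cells, was at 87.3 ± 7.47 against 177 ± 6.64 TPM (log2FC -1.13), and *Pik3ap1*, which links TLRs to PI3K, at 123 ± 9.63 against 233 ± 10.8 TPM (log2FC -1.05). *Sarm1* had the largest fitted change (log2FC -3.13) but rested on 2 to 3 STAR counts per young TOM+ and 11 to 25 per adult library. The adaptor higher in young cells was *Tirap*, which bridges TLR2 and TLR4 to MyD88, at 5.77 ± 0.972 against 2.58 ± 0.163 TPM (log2FC 1.02, edgeR adjusted p = 0.00012). *Tirap* and *Myd88* are named although their values were known when they were chosen.

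Of 19 kinases and ubiquitin ligases tested, 1 was higher in young TOM+ and 7 in adult cells. *Map3k8*, the kinase that drives ERK activation downstream of TLRs, was at 29.3 ± 1.09 TPM in young and 77.5 ± 10.6 TPM in adult cells (log2FC -1.53, edgeR adjusted p = 2.3e-06). *Peli1*, a ubiquitin ligase, followed at a log2FC of -0.59, and *Tab1*, a partner of the kinase TAK1, was the one higher in young cells at 0.79. The 4 genes for folding and transport split, with the chaperone gene *Hsp90b1* (gp96) higher in young cells (log2FC 0.43, edgeR adjusted p = 0.025) and its co-chaperone *Cnpy3* higher in adult cells (log2FC -0.28, edgeR adjusted p = 0.0069). Among other ligand-binding partners, 3 were tested. Of these, 2 passed as higher in young TOM+ cells (21.0% of all genes) and 1 as higher in adult cells (19.5% of all genes). *Cd36*, a scavenger receptor that aids TLR2 and TLR6, was higher in young cells (log2FC 0.73), as was *Itgam* (0.78), which encodes CD11b and so belongs to the sort gate, while *Itgb2* was higher in adult cells (-0.34).

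Of 7 negative regulators, 2 were higher in young TOM+ and 3 in adult cells. *Il1rl1* was at 1.26 ± 0.44 against 0.167 ± 0.0896 TPM (log2FC 2.87, on 4 to 10 STAR counts in adult libraries) and *Irak3*, a kinase homologue that restrains MyD88 signalling, at 5.63 ± 0.648 against 2.88 ± 0.176 TPM (log2FC 0.81). *Tnfaip3* (A20) was higher in adult cells, at 360 ± 54.2 against 225 ± 42.1 TPM (log2FC -0.80). Of the 7 other Toll-like receptors, 0 were higher in young TOM+ cells and 2 in adult cells. *Tlr7*, an endosomal sensor of single-stranded RNA, stood at 3.6 ± 0.803 against 35.4 ± 1.78 TPM (log2FC -3.43, edgeR adjusted p = 3e-08), and *Tlr11*, an endosomal profilin sensor, at 9.08 ± 1.66 against 12.1 ± 1.42 TPM (log2FC -0.54). Of these 7, 2 also passed between the young groups, *Tlr7* and, named after its values were seen, *Tlr12*.

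**Figure D5:**
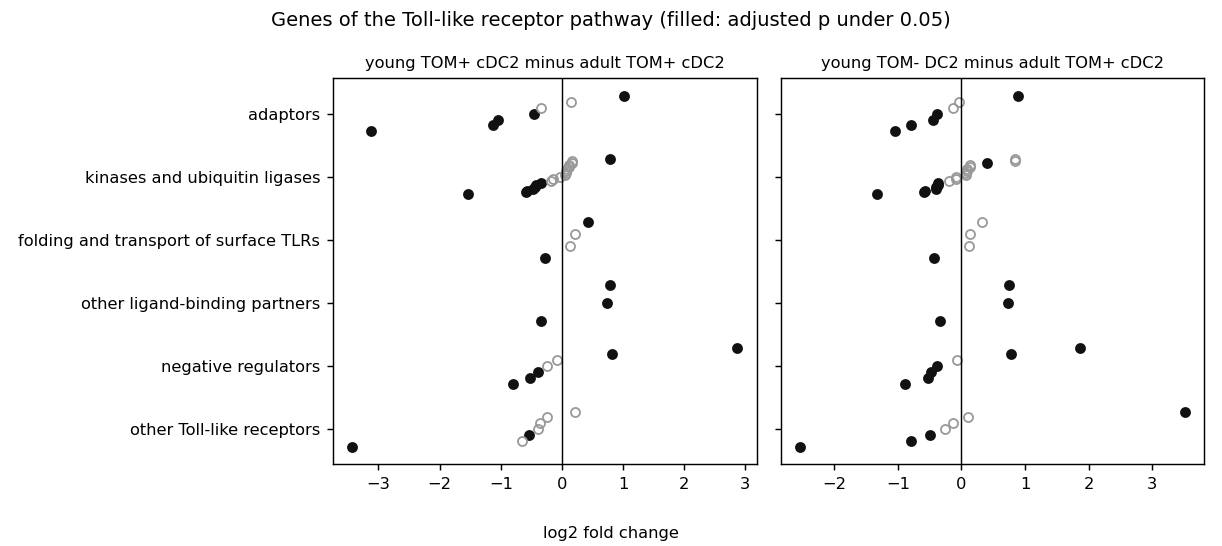
log2 fold change of each tested gene in 6 lists of Toll-like receptor pathway genes, for young TOM+ cDC2 (left) and young TOM- DC2 (right) against the same adult TOM+ cDC2 libraries; filled points passed at an adjusted p under 0.05 (edgeR). Far to the left are *Tlr7* at -3.43 and *Sarm1* at -3.13 in the left panel, and far to the right *Tlr12* at 3.52 in the right panel.

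Genes whose pattern over the 9 libraries was most like that of *Tlr1*, *Tlr4* and *Tlr5* were sought among the 10112 genes that averaged 50 counts or more, by the root mean square difference of centred log2(TPM + 1). For *Tlr1* these were *Birc3* (0.07), *Sirpb1a* (0.094) and *Tmem63b* (0.104). For *Tlr4* they were *Cd79b* (0.056), *Ccdc115* (0.107) and *Zbed3* (0.111), and for *Tlr5* *Dab2ip* (0.117), *Stk39* (0.138) and *Relb* (0.155). *Relb* averaged 204 ± 19.8 TPM in young TOM+, 185 ± 14.2 TPM in young TOM- and 483 ± 53.3 TPM in adult cells. The order is not firm for low genes: with log2(TPM + 0.1), *Ccdc115* ranked 26 and *Stk39* 107, while *Birc3* and *Dab2ip* stayed first.

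RefSeq promoter windows (GRCm38.p6, 250 bases before to 50 after a start) were at hand for 6 of the 9 genes, and 4 short motifs were sought on both strands. The PU.1 core GAGGAA occurred in 1 of 2 *Tlr1* windows, as in 28.3% of 32851 windows of all genes. No other member window held it. *Tlr5* was also called in both age comparisons, and its window held none of the 4 motifs, while *Tlr4* had no window at hand. The *Tlr1* window is shown, with the motif in capitals, as the only match in a gene called in both age comparisons. Its first 250 bases lie at chr5:64933559-64933808 and are read on the minus strand.
*Tlr1*: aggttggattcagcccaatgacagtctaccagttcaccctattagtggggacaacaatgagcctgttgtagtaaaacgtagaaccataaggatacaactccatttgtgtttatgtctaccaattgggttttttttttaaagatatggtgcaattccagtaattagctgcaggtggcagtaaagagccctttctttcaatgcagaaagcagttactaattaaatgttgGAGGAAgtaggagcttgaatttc
The interferon response core occurred at 2 overlapping places in a *Tlr6* window and in 3.4% of all windows. No member window held AP-1 (TGANTCA, 7.8% of windows) or NF-kB (1.6%). A match describes letters in a window and not a bound site.

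Markers of other cell types also differed between the groups. The 9 monocyte genes summed to 382.7 to 418.2 TPM in young TOM+ cDC2, 336.8 to 391.7 in TOM- DC2 and 271.8 to 301.5 in adult cells, and 3 of 9 passed as higher in young TOM+ (21.0% of all genes) and 1 as higher in adult cells (19.5% of all genes). Their sum came mostly from *Csf1r* and *Treml4*, while *Ly6c2*, *Vcan* and *F13a1* reached at most 1.86, 0.08 and 0.25 TPM in any library. The 9 macrophage genes listed in the files summed to 757 to 810 TPM in young TOM+ cDC2, 794.3 to 880.8 in TOM- DC2 and 677 to 815.2 in adult cells, with *Cd68* the largest part. In the same order *C1qb* stood at 35.76 to 50.65, 64.57 to 78.33 and 19.49 to 43.06 TPM. *Spic* stood at 41.88 to 47.79, 52.34 to 81.58 and 23.28 to 31.84 TPM. *Marco*, *Fcgr1* and *Mertk* reached at most 0.82, 1.02 and 2.22 TPM in any library. Between TOM- DC2 and adult cells 5 of the 9 macrophage genes passed as higher in TOM- DC2, where 19.4% of all genes did. B cell genes summed to 62.26 to 89.18 TPM in the 6 young and 43.78 to 57.38 TPM in the adult libraries, of which *Cd79b* alone gave 25.34 to 68.2, while *Pax5* reached at most 0.12 TPM. The cDC2 genes summed to 58630 to 65800 TPM in the young and 92400 to 95410 TPM in the adult libraries, with *Cd74* and *H2-Ab1* the largest part. Of the 10 cDC2 genes, 3 passed as higher in young TOM+ (21.0% of all genes) and 6 as higher in adult cells (19.5% of all genes). *Sirpa* stood at 638.07 to 862.4 TPM in young and 462.71 to 484.74 TPM in adult libraries, and *Clec4a4* at 96.06 to 136.34 and 243.88 to 279.98 TPM. In young and adult libraries the cDC1 genes summed to 201.9 to 233.2 and 239.9 to 253.4 TPM, and the pDC genes to 103.6 to 115.8 and 121.7 to 164.2 TPM. *Bst2* gave 76.71 to 92.49 TPM of the pDC sums in young and 100.18 to 140.24 in adult libraries. Neutrophil genes summed to 4.52 to 5.48 TPM in young TOM+ cDC2, 4.85 to 38.3 in TOM- DC2 and 8.34 to 10.74 in adult cells. *Csf3r* alone gave 3.6 to 4.82 TPM in young TOM+ and 8.12 to 10.4 in adult cells. T cell genes summed to at most 6.54 TPM in any library, and erythroid genes to at most 40.1 TPM in TOM+ cells of either age. The part of these differences in the results for the receptors was not tested.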

How the data were processed

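mRNA from sorted cells of 9 libraries (3 per group) was sequenced as single-end 50-base reads after SMART-seq cDNA synthesis. Per the labels and the study's methods, the authors aligned reads to mm10 with STAR and quantified them with RSEM; versions are not given in the sources used here. The deposited STAR file holds raw read counts per gene, and its unstranded column was used; 26.1% to 31.6% of reads were on no gene and stayed out of library sizes. The deposited RSEM file holds expected counts (rounded for an alternative), TPM, which was used for levels, ratios and shares, and FPKM, which the authors deposited and which was not used. Other lengths in that file served only for counts per effective length.

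Groups were read from the labels. Counts of the 14452 genes with an average of at least 1 were tested with edgeR 4.0.16 (R 4.3.3): TMM normalization, quasi-likelihood fit of all 9 libraries in 3 groups, Benjamini-Hochberg over all genes tested. A log2FC is first group minus second, its SE is its size divided by the square root of F, and its interval uses the fit's degrees of freedom at 95%. Alternatives were DESeq2 1.42.0 (Wald test, and its size factors in edgeR), limma 3.58.1 on log2(TPM + 1) and log2(TPM + 0.1), other filters, RSEM expected counts, each 2 groups alone, leaving out each library, and the library number as a replicate block. In a test on simulated data for young TOM+ against adult TOM+ cDC2 (14254 genes, 200 changed), edgeR recovered 93.5% with 16 false passes. This share is taken over all 200 genes together, and recovery at the log2FC values of the 9 genes was not tested. Deviations from group means correlated at 0.75, 0.5 and 0.52 between young libraries of the same number, against 0 to 0.16 with adult libraries. By the data the young libraries thus look paired and the adult ones do not. The main fit and its intervals leave this pairing out, and only the alternatives with the block use it. No 2 libraries of a group were copies (lowest chi-square per gene 8.74).

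The 9 genes, the pathway and marker lists and the tests were chosen with earlier results of these data known. Named genes were the 9 members, up to 3 genes per pathway list with the largest log2FC among those that passed between young and adult TOM+ cDC2, and the 3 genes nearest in pattern to each called member. *Adgre1*, *Ly6g* and *Trac* of the marker lists were not analysed here. Genome positions come from GENCODE vM21 on GRCm38.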

Additional observations from a re-analysis of the deposited data

Results flagged for a closer look

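None of the 9 genes passed a test of the difference between the young populations in their change from adult cells. Of the pathway genes, 3 passed, by the edgeR test of young TOM+ cDC2 against young TOM- DC2, which is the difference between the changes of both from the adult libraries they share.

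*Tlr12*, an endosomal receptor that works with TLR11, had 0.72, 1.34 and 1.78 TPM in young TOM+ libraries, 26.91, 18.16 and 25.71 TPM in young TOM- libraries and 2.19, 1.90 and 1.53 TPM in adult libraries, a difference of -4.17 on the log2 scale (edgeR adjusted p = 7.4e-06). *Tlr7* had 4.48, 2.91 and 3.40 TPM in young TOM+ and 7.91, 5.44 and 7.13 TPM in young TOM- libraries, a difference of -0.89 (edgeR adjusted p = 0.0057), both far under the 33.72 to 37.25 TPM of adult libraries. *Sarm1* differed by -3.00 (edgeR adjusted p = 0.024) on 3, 3 and 2 STAR counts in young TOM+ and 33, 13 and 16 in young TOM- libraries, where library 81 is the one with hemoglobin and neutrophil transcripts.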

How the results depend on the processing

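Over 19 alternatives the 9 genes kept direction and side of the threshold in 477 of 513 values, and of the others 11 lost the threshold, 13 passed it and 12 changed sign. *Tlr1*, *Tlr2*, *Tlr4*, *Tlr5* and *Cd180* kept both in all 19 in both comparisons with adults, and between the young groups no gene passed under any. Between young TOM+ and adult cells, 5 to 7 genes passed and 2 to 4 were called when single libraries were left out (5 to 6 and 3 to 4 for TOM- DC2). With limma on log2(TPM + 1), 1 gene was called between young TOM+ and adult cells (*Tlr5*) instead of 3; TPM carries no TMM scaling, and this fit moved the median log2FC of all genes to 0.10 and 0.14 (0.17 and 0.22 with log2(TPM + 0.1)), against 0.05 and 0.07. With the replicate block over all libraries, whose numbers adults share without being paired by the data, 8 genes passed between TOM- DC2 and adult cells. With the replicate block of the young libraries 6 did, *Cd14* being the one gained, and it changed no other call.

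Signs changed only for differences near 0 that did not pass. When single libraries were left out, *Ly96* between young TOM+ and adult cells ran from -0.18 to 0.24, and between the young groups *Tlr1* ran from -0.12 to 0.04, *Tlr6* from -0.18 to 0.07 and *Cd14* from -0.33 to 0.23. *Ly86* in TOM- DC2 against adults became 0.02 with limma under either pseudocount. Differences between groups in the 6 ratios moved by less than 1 SD between libraries with STAR counts per effective length (*Tlr1*/*Tlr2* between young TOM+ and adult cells from -1.77 to -1.75, *Tlr6*/*Tlr2* from -1.05 to -1.02), while the ratios of *Tlr1* and *Tlr6* to *Tlr2* themselves were lower with STAR counts in all groups. Depth limits *Tlr4* and *Ly96* most. The cause of these changes was not tested.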
